A study of Mus musculus with 4 samples.

Results

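The clustered protocadherins are cell-surface proteins of the cadherin superfamily whose genes lie in 3 neighbouring arrays, alpha, beta and gamma, on mouse chromosome 18. Members were taken as the rows of the deposited expression table named Pcdha, Pcdhac, Pcdhb, Pcdhga, Pcdhgb or Pcdhgc followed by a number. The rule found 58 of 56035 rows, with 14 in the alpha cluster, 22 in the beta cluster and 22 in the gamma cluster. The rule reads gene names only. The gamma cluster was made up of 12 members of subfamily A, 7 of subfamily B and 3 C-type members, and the alpha cluster of 12 numbered members and the C-type members Pcdhac1 and Pcdhac2.

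Each of these genes begins with its own large variable exon behind its own promoter, which encodes the extracellular cadherin repeats, the transmembrane segment and a short cytoplasmic stretch. In the alpha and gamma clusters that exon is spliced to constant exons common to the cluster, so members share an intracellular tail, whereas beta members have no such tail. Single neurons are known to choose a few of the numbered isoforms, largely at random, through CTCF and cohesin contacts and promoter DNA methylation, while C-type isoforms are used more uniformly. The proteins form combinations on the surface that bind the same combination on another membrane, which underlies the self-avoidance of neurites, and gamma members are also known for neuronal survival and for the branching of sensory axons.

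RNA came from the trigeminal ganglion, which holds the cell bodies of facial sensory neurons and their glia, in male C57BL/6 mice aged 8 weeks. The 2 WT libraries were from littermates of the mice behind the 2 K823R libraries, which carry a lysine-to-arginine change in the heat- and capsaicin-gated channel TRPV1 and which the labels call both knock-in and transgenic, with no promoter or driver named. The series concerns TRPV1 SUMOylation and itch, and the comparison asks how the ganglion's transcripts differ between these genotypes. The protocol speaks of 2 pairs of ganglia without saying how animals map to libraries, so each p-value measures only the spread between these libraries, which may be technical.

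Values are TPM, an abundance of transcripts divided by transcript length and scaled to the same total in each library, so levels can be set side by side between genes. TPM keeps no read total, so sequencing depth is unknown, and the libraries held between 21838 and 22119 genes above 0. All 12 sensory neuron markers examined were at 1 TPM or more in every library, summing to 8094 and 7063 TPM among WT against 7950 and 7580 TPM among K823R libraries. Trpv1 itself was at 39.2 and 30.6 TPM with the WT allele and 40.9 and 35.0 TPM with K823R, and since the allele changes a codon its level does not check the labels. WT replicate 1 stood apart in 10 markers of central nervous system glia, which summed to 46.5 TPM there against 271 TPM in the other WT library and 328 and 389 TPM in K823R. In whole ganglia, fewer cells of a type and less RNA per cell cannot be told apart.

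The 58 members lie between positions 36930184 and 37841873 of chromosome 18 on GRCm38 in the GENCODE M21 annotation, which held all 58 identifiers under the same names. The alpha cluster comes first, from Pcdha1 to Pcdhac2, followed by the beta cluster and then the gamma cluster, which ends with Pcdhgc3, Pcdhgc4 and Pcdhgc5. The 3 constant exons of the alpha cluster, at 37156155-37156213, 37159265-37159353 and 37184946-37187657, were present in 14 of 14 alpha members. Those of the gamma cluster, at 37825021-37825079, 37833265-37833353 and 37839903-37841873, were present in 22 of 22 gamma members. All 22 beta members are single-exon genes.

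This layout bears on what a member's TPM rests on. The median share of exonic bases that a member has in common with other members was 53.5% for numbered alpha genes, 44.8% for gamma A, 45.0% for gamma B, 38.5% for the C-type members and 0% for beta genes. Reads from the constant exons cannot be tied to 1 member by sequence, and how the authors divided them is not given in the sources used here. Alpha and gamma values below are therefore uncertain as single-gene levels, whereas the summed level of a cluster is less exposed to that division. Pcdha4 was the extreme, with 95.5% of its 150-base windows also present in other annotated genes, among them the readthrough model Gm42416, which was listed at 0 in 3 libraries and at 0.11 TPM in the other. Both Pcdha11 rows are kept apart by their Ensembl identifiers, because the table gives that name to ENSMUSG00000007440, which RefSeq calls Pcdha10, and to ENSMUSG00000102206.

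Taken as sums, the gamma and alpha clusters were expressed at like levels in the ganglion and the beta cluster lower, and no cluster's total separated the genotypes. The alpha members summed to 97.5 and 86.1 TPM in the WT libraries and 103 and 88.8 in the K823R libraries. The beta members summed to 31.9 and 29.5 TPM among WT against 31.9 and 33.1 TPM among K823R libraries. The gamma members summed to 106 and 95.2 TPM with the WT allele and 117 and 105 TPM with K823R. In each cluster 1 K823R library lay within the WT range, so the groups overlapped.

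Across all 58 rows the total was 223 ± 17.7 TPM (SD, n = 2) for WT and 239.6 ± 17.9 TPM (SD, n = 2) for K823R, of which the alpha cluster took 39.1% to 41.4%, the beta cluster 12.6% to 14.6% and the gamma cluster 45.1% to 46.5% in the 4 libraries. The difference of K823R minus WT in mean log2 sum was 0.06 for alpha, 0.08 for beta and 0.14 for gamma, each with a two-sided exact permutation p of 0.667, in a design whose smallest possible p is 0.33. Entered as summed rows in the limma fit over the other genes, the differences had 95% intervals from -0.23 to 0.36 for alpha, from -0.15 to 0.31 for beta and from -0.12 to 0.40 for gamma on the log2(TPM + 1) scale. The limma adjusted p-values of these sums were 0.959, 0.936 and 0.919.

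**Figure D1:**
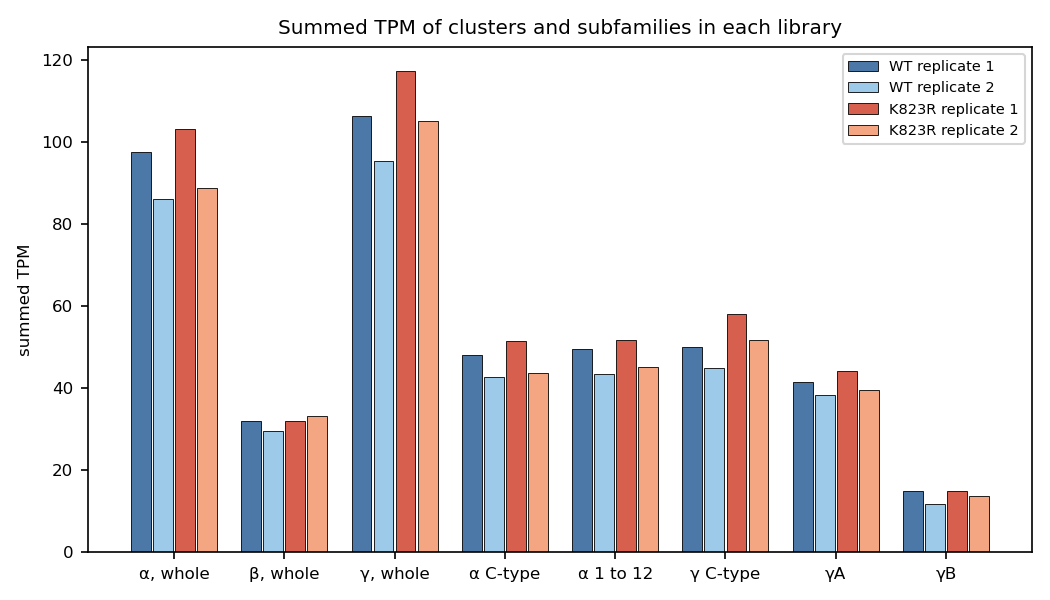
Bars give the summed TPM of each cluster and subfamily in each of the 4 libraries, on an axis that starts at 0. The 3 whole clusters overlap between genotypes, and K823R replicate 1 has the highest alpha and gamma sums, at 103 and 117 TPM.

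Single members were compared with limma on log2(TPM + 1), with Benjamini-Hochberg adjustment over the 15390 genes whose mean over the 4 libraries was at least 1 TPM. Of the 58 members, 44 reached that level, 13 alpha, 11 beta and 20 gamma. None of the 44 passed an adjusted p of 0.05, where 0.00650% of all genes tested did, a single gene, Gm43110, listed at 0 in both WT libraries and at 40.5 and 51.5 TPM in K823R. None had an unadjusted p under 0.05 either, against 4.76% of all genes, and the smallest was 0.096, for Pcdhga6.

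The tested members had a higher mean log2 value in K823R in 28 cases and a lower one in 16, and their median difference was 0.06, while 57.4% of all genes tested were higher and the median over them was 0.03. Differences ran from -0.28 for Pcdhb18 to 0.48 for Pcdhga5, with limma adjusted p-values from 0.918 to 0.997. The K823R libraries were both above the WT libraries in 10 members, or 22.7%, against 19.4% of all genes tested, and below both in 7 members, or 15.9%, against 14.6%. The members' shares were thus near those of the whole table. The median half-width of the 95% interval was 0.52 for the members and 0.34 for all genes, so the test was coarser for protocadherins than for a typical gene. The interval lay inside 1 log2 unit in either direction for 40 of 44 members, and inside 0.5 for 9.

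**Figure D2:**
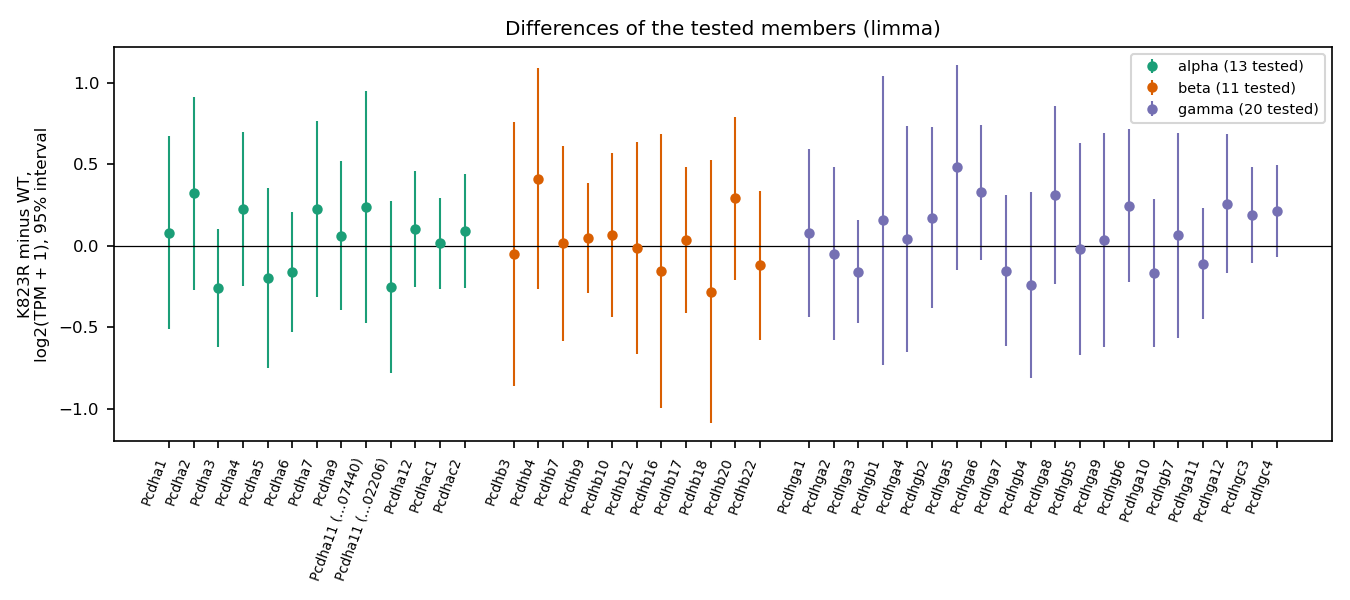
Points give the limma difference, K823R less WT in log2(TPM + 1), for the 44 tested members in chromosome order, coloured by cluster, with vertical lines for the 95% interval. Each interval includes 0, and the points run from -0.28 for Pcdhb18 to 0.48 for Pcdhga5.

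The most abundant members, by a wide margin, were 4 of the 5 C-type isoforms. Pcdhac2, which is needed for the even spacing of serotonergic axons, was the highest of the 58 at 32.4 and 28.5 TPM in the WT libraries and 35.9 and 29.4 in the K823R libraries. Pcdhac1 was listed at 15.7 and 14.1 TPM among WT against 15.7 and 14.4 TPM among K823R libraries. The genotypes overlapped in both alpha C-type genes, and the limma difference was 0.09 ± 0.13 (SE) for Pcdhac2 and 0.01 ± 0.11 for Pcdhac1.

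Pcdhgc3, which binds the Wnt pathway scaffold Axin1, was at 29.4 and 26.4 TPM with the WT allele and 34.2 and 29.8 TPM with K823R. Pcdhgc4, the isoform tied to the survival of neurons, was at 20.4 and 18.2 TPM in the WT libraries and 23.6 and 21.4 in the K823R libraries. In both genes the K823R libraries lay above the WT libraries, although K823R replicate 2 exceeded WT replicate 1 only narrowly. The limma difference was 0.19 ± 0.11 (SE, 95% interval -0.10 to 0.49) for Pcdhgc3 and 0.21 ± 0.11 (-0.07 to 0.49) for Pcdhgc4. Each had a limma adjusted p of 0.918. Without K823R replicate 1 the Pcdhgc3 difference was 0.09, without WT replicate 2 it was 0.11 and without K823R replicate 2 it was 0.29, and the Pcdhgc4 difference was 0.13 without WT replicate 2. The annotated antisense gene BC037039 overlaps Pcdhgc3 and was at 3.10 and 2.51 TPM among WT against 3.69 and 2.89 TPM among K823R libraries; the strand setting of the counting is not given, so reads of the pair may be mixed.

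Pcdhgc5, which associates with GABA-A receptors, was by contrast nearly silent. It was listed at 0.22 and 0.37 TPM with the WT allele and 0.18 and 0.46 TPM with K823R, and was not tested. Thus the last gene of the gamma array stood far below its immediate neighbours in all 4 libraries. The 5 C-type members together made up 41.5% to 43.4% of the summed TPM of the 58.

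**Figure D3:**
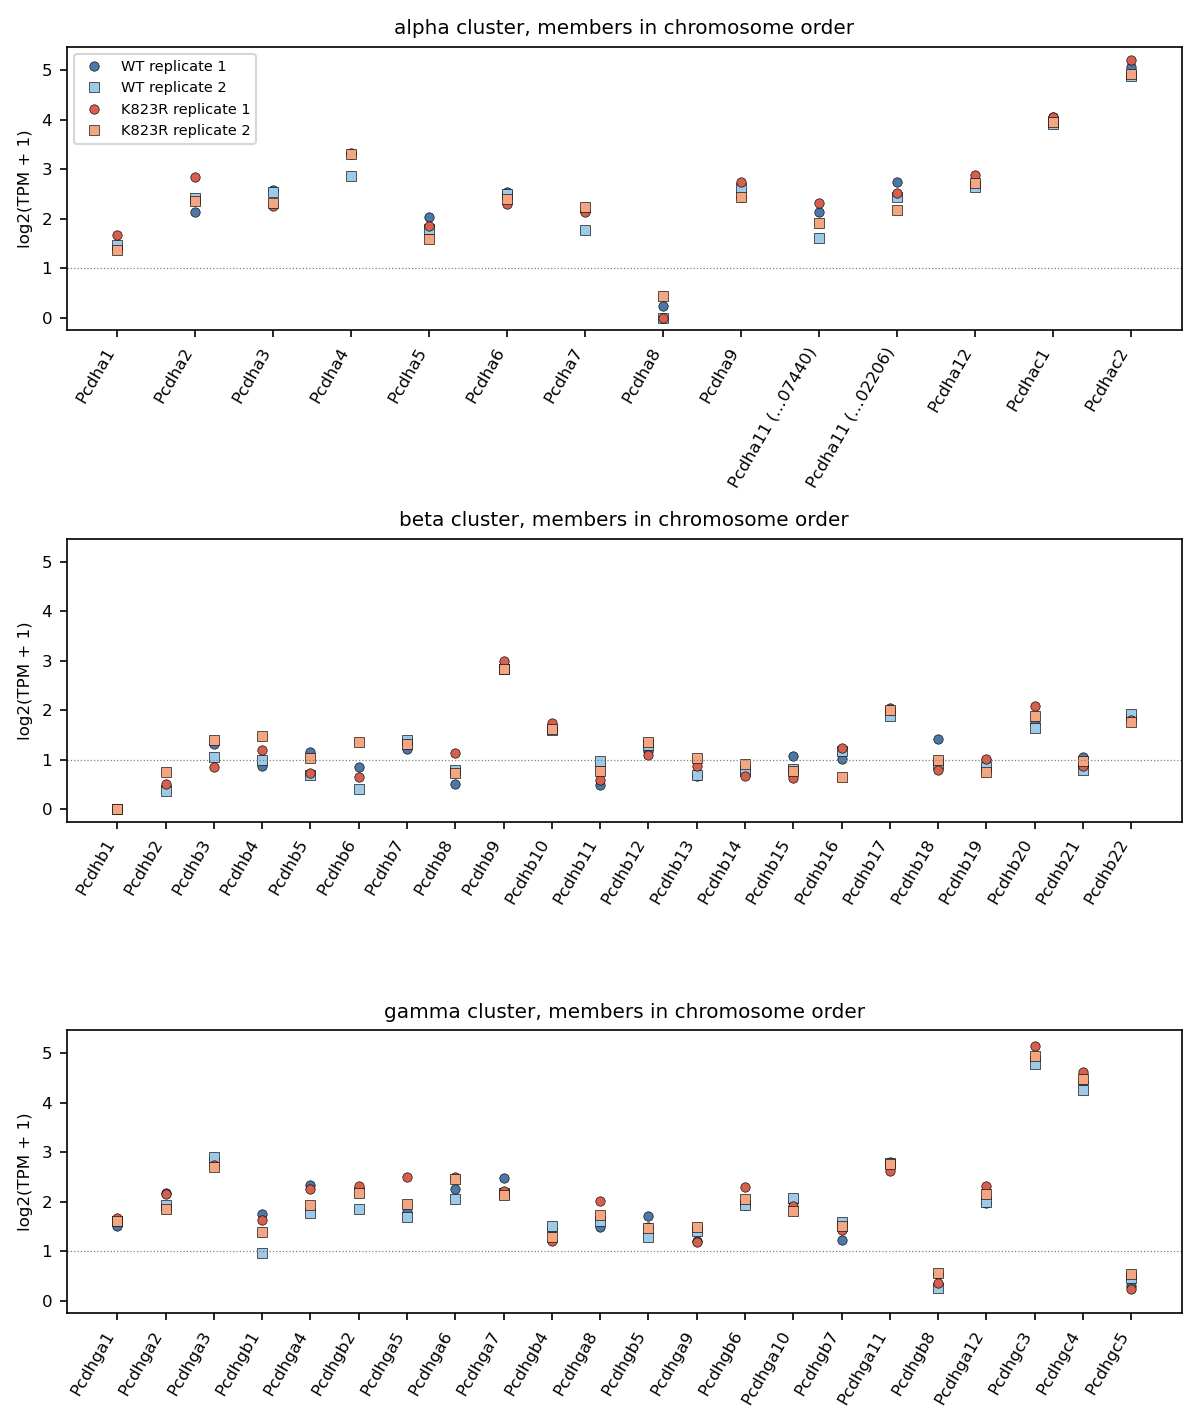
Points give log2(TPM + 1) of each member in each of the 4 libraries, one panel per cluster with members in chromosome order, colour marking genotype and shape the replicate, and the dotted line marking 1 TPM. Pcdhac1, Pcdhac2, Pcdhgc3 and Pcdhgc4 stand above the other members, and 11 beta members average under 1 TPM.

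Among the numbered alpha isoforms, which reach the surface in combination with other protocadherins, 11 of 12 were tested. Pcdha4 was the highest at 8.92 and 6.29 TPM in the WT libraries and 9.04 and 8.82 in the K823R libraries, with the reservation on its sequence given above. Pcdha12, the numbered isoform nearest to the C-type genes, was at 5.64 and 5.25 TPM among WT against 6.31 and 5.56 TPM among K823R libraries. Pcdha9 was at 4.38 and 5.12 TPM with the WT allele and 5.65 and 4.40 TPM with K823R. The genotypes overlapped in these 3 genes. Pcdha1, at the start of the locus, was the lowest of those tested, with 1.65 and 1.75 TPM in the WT libraries and 2.16 and 1.58 in the K823R libraries. Pcdha8 was all but unexpressed, listed at 0.17 and 0 TPM among WT against 0 and 0.35 TPM among K823R libraries, although both of its neighbours were expressed.

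No tested alpha member had both K823R libraries above both WT libraries, against 19.4% of all genes tested. In 2 of 13 both were below, or 15.4%, near the 14.6% of all genes tested. Pcdha3 was one of them, at 4.93 and 4.78 TPM with the WT allele and 3.80 and 3.98 TPM with K823R, a limma difference of -0.26 ± 0.14 (SE, adjusted p = 0.918). Pcdha6 was the other, at 4.79 and 4.62 TPM in the WT libraries and 3.93 and 4.29 in the K823R libraries. In Pcdha3 the gap between genotypes was larger than that between the libraries of either, yet the fitted interval still included 0. The Pcdha11 row ENSMUSG00000102206 was at 5.70 and 4.44 TPM among WT against 4.70 and 3.49 TPM among K823R libraries, so the genotypes overlapped. The smallest p on the higher side belonged to Pcdha2, at 3.38 and 4.33 TPM with the WT allele and 6.11 and 4.13 TPM with K823R. Its limma difference of 0.32 ± 0.23 (SE, adjusted p = 0.918) became 0.09 without K823R replicate 1.

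The beta isoforms, which have no constant tail and almost no exonic overlap, were the least expressed, and 11 of 22 averaged under 1 TPM. Pcdhb9 was the exception at 6.46 and 6.08 TPM in the WT libraries and 6.93 and 6.12 in the K823R libraries, between 18.5% and 21.7% of the beta sum in each library. Pcdhb17 followed at 3.10 and 2.68 TPM among WT against 2.98 and 2.99 TPM among K823R libraries. Neither gene separated the genotypes. Pcdhb1, the first of the array, was listed at 0 in all 4 libraries. Pcdhb16, the lowest that was tested, was at 1.02 and 1.26 TPM with the WT allele and 1.35 and 0.57 TPM with K823R, a spread within K823R larger than the gap between group means.

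Of the 11 beta members tested, 3 had both K823R libraries above both WT libraries, namely Pcdhb4, Pcdhb10 and Pcdhb20, and 1, Pcdhb22, had both below. Those shares were 27.3% and 9.1%, against 19.4% and 14.6% of all genes tested. Pcdhb4 was at 0.83 and 0.99 TPM in the WT libraries and 1.30 and 1.80 in the K823R libraries, a limma difference of 0.41 ± 0.26 (SE, adjusted p = 0.918). Its WT mean of 0.91 TPM was under the filter of 1 TPM, so it was tested only through its K823R values. Pcdhb20 was at 2.35 and 2.09 TPM among WT against 3.24 and 2.66 TPM among K823R libraries, a difference of 0.29 ± 0.19 with the same adjusted p. The difference became 0.27 without K823R replicate 2 and 0.70 with 0.1 TPM added in place of 1 for Pcdhb4, and 0.19 without K823R replicate 1 for Pcdhb20. On the lower side, Pcdhb22 was at 2.67 and 2.76 TPM with the WT allele and 2.46 and 2.38 TPM with K823R, with the replicates of each genotype close together. Pcdhb18 had the lowest estimate, -0.28 ± 0.31, from 1.68 and 0.89 TPM in the WT libraries and 0.73 and 0.98 in the K823R libraries, and there the genotypes overlapped. That estimate was -0.03 without WT replicate 1, -0.53 without WT replicate 2, -0.19 without K823R replicate 1 and -0.49 with 0.1 TPM added in place of 1. The K823R mean of Pcdhb18, 0.855 TPM, was under 1 TPM, so it passed the filter only through its WT values.

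All 12 members of gamma subfamily A were tested. Pcdhga3 and Pcdhga11 were the highest, and in both the K823R libraries lay below the WT libraries. Pcdhga3 was at 6.27 and 6.45 TPM among WT against 5.69 and 5.49 TPM among K823R libraries, a limma difference of -0.16 ± 0.12 (SE, adjusted p = 0.918). Pcdhga11 was at 6.00 and 5.91 TPM with the WT allele and 5.14 and 5.75 TPM with K823R. Pcdhga10 also lay lower, at 2.95 and 3.21 TPM in the WT libraries and 2.78 and 2.49 in the K823R libraries. The lowest of the subfamily, Pcdhga9, was at 1.30 and 1.65 TPM among WT against 1.27 and 1.82 TPM among K823R libraries, with full overlap.

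In the opposite direction, 4 gamma A members had both K823R libraries above both WT libraries. Pcdhga6 was at 3.79 and 3.16 TPM with the WT allele and 4.68 and 4.52 TPM with K823R, a limma difference of 0.33 ± 0.16 (SE, 95% interval -0.09 to 0.74, adjusted p = 0.918). Its neighbour Pcdhga5 had the highest estimate of the 44, from 2.47 and 2.23 TPM in the WT libraries and 4.61 and 2.89 in the K823R libraries. That difference of 0.48 ± 0.24 (SE, 95% interval -0.15 to 1.11) became 0.22 without K823R replicate 1. Pcdhga8 and Pcdhga12 were the other two. Members of the same subfamily, sharing their constant exons, thus lay on both sides of the WT range.

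In gamma subfamily B, 6 of 7 members were tested, and the one that was not, Pcdhgb8, is annotated as a polymorphic pseudogene and stayed under 0.5 TPM in every library. Pcdhgb2 was the highest at 3.86 and 2.62 TPM among WT against 3.97 and 3.49 TPM among K823R libraries, with overlap. Pcdhgb6 was at 2.81 and 2.80 TPM with the WT allele and 3.93 and 3.13 TPM with K823R, both above WT, with a limma difference of 0.25 ± 0.18 (SE, adjusted p = 0.918) that was 0.12 without K823R replicate 1 and 0.37 without K823R replicate 2. Pcdhgb4, the lowest tested, was at 1.74 and 1.86 TPM in the WT libraries and 1.30 and 1.44 in the K823R libraries, both below WT, with a difference of -0.24 ± 0.22, or -0.37 with 0.1 TPM added in place of 1. The rest of the subfamily overlapped between genotypes, among them Pcdhgb5 at 2.29 and 1.43 TPM among WT against 1.79 and 1.78 TPM among K823R libraries. Of the 6 tested, 16.7% thus lay above and 16.7% below, against 19.4% and 14.6% of all genes tested.

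In the gamma cluster the part of the total that came from C-type members was slightly higher in both K823R libraries, while in the alpha cluster it overlapped between genotypes. C-type members took 47.1% and 47.2% of the gamma sum in WT and 49.5% and 49.2% in K823R, so that the groups did not overlap. The difference of 2.21 percentage points between group means (47.1% ± 0.0492 against 49.3% ± 0.213, SD, n = 2 each) had an exact two-sided permutation p of 0.33, the smallest that 2 against 2 libraries can give. That order necessarily holds when WT replicate 1, the library that stood apart, is left out, so leaving it out is no further check. The scale of a library cancels in such a share. The division of constant-exon reads among members, which is not known, can still move it.

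Gamma A members took the complementary course, with 38.9% and 40.4% of the gamma sum in WT and 37.7% and 37.7% in K823R. That was a difference of -1.98 points, also without overlap and with an exact permutation p of 0.33. Gamma B shares overlapped, at 14.0% and 12.5% in WT and 12.8% and 13.1% in K823R. In the alpha cluster the C-type share was 49.3% and 49.5% in WT and 50.0% and 49.3% in K823R, with an exact permutation p of 0.667. Shares within a cluster add up to the whole, so the C-type and gamma A shares are not separate observations.

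**Figure D4:**
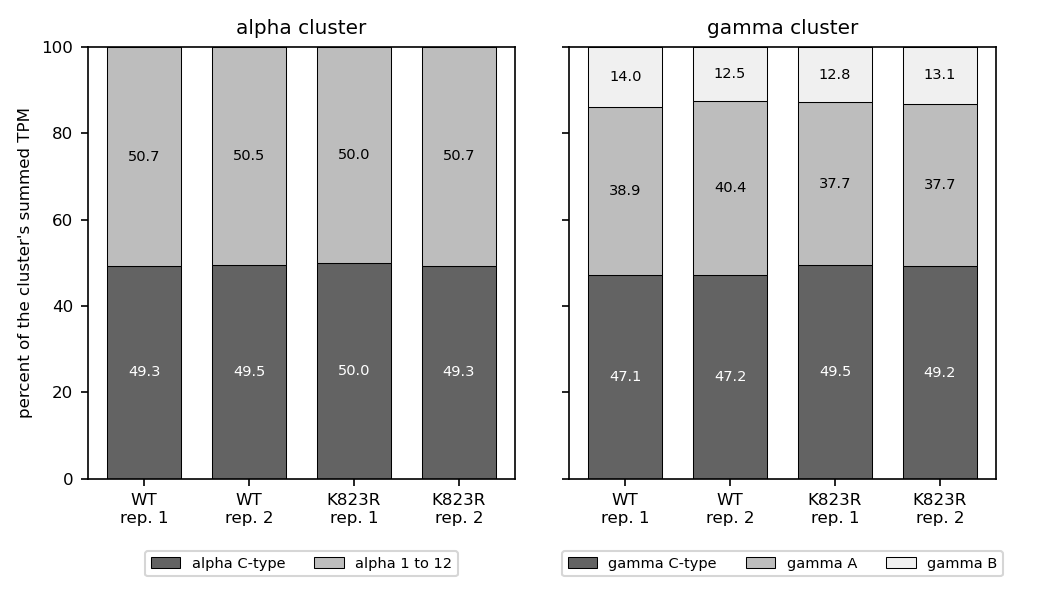
Stacked bars give the percent of the summed TPM of the alpha cluster and of the gamma cluster taken by each subfamily in each of the 4 libraries. The gamma C-type share is 47.1% and 47.2% in WT and 49.5% and 49.2% in K823R, while the alpha C-type share lies between 49.3% and 50.0% throughout.

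The order of the members by level was much the same in the 4 libraries. Spearman's rho between pairs of libraries over the 58 rows was between 0.946 and 0.960, and 0.970 between the genotype means. Within clusters it was 0.836 to 0.952 for alpha, 0.664 to 0.853 for beta and 0.877 to 0.968 for gamma, the beta values resting on many genes near 1 TPM. These are correlations across genes, which share libraries and, in alpha and gamma, exons, and they are given as a description. Position along the array went with level only loosely, with a rho of 0.54 over the 14 alpha rows that became 0.27 over 12 without the C-type genes. The rho was 0.34 over the beta rows. Over the gamma rows it was -0.04, and -0.20 over 19 without the C-type genes.

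Levels also varied between libraries of 1 genotype. Of the 44 tested members, 20 were highest in K823R replicate 1 and 19 were lowest in WT replicate 2, counting ties for no library. Those shares of 45.5% and 43.2% compare with 32.9% and 35.7% of all genes tested, so the same 2 libraries led in the whole table. The same libraries gave the highest and lowest totals of the 58 rows, 252 and 211 TPM. WT replicate 2 was also the lowest in the sum of sensory neuron markers. Of the 10 central glial markers, 9 were higher in both K823R libraries, as were 19.4% of all genes tested, with Mog, Opalin and Olig2 at 0 in WT replicate 1. Macrophage markers summed to 53.0 and 83.9 TPM for WT and to 87.0 and 115 TPM for K823R, and 3 of the 7 were higher in both. Satellite glia markers summed to 11107 and 11026 TPM for WT and to 11035 and 12292 TPM for K823R, with 0 of 6 higher in both and 1 lower. Endothelial markers summed to 58.3 and 77.35 TPM for WT and to 80.3 and 71.8 TPM for K823R, and none of the 5 separated the genotypes. Meningeal fibroblast markers summed to 342 and 1066 TPM for WT and to 2831 and 898 TPM for K823R, and 3 of the 7 were higher in both K823R libraries. Of these sums, Ptgds alone was at 109 and 577 TPM for WT and 2374 and 472 TPM for K823R. Mgp and Pdgfra were also highest in K823R replicate 1, Col1a1 and Col1a2 in K823R replicate 2, and Dcn and Lum in WT replicate 2. Myelinating Schwann cell markers summed to 11455 and 14230 TPM for WT and to 14133 and 16853 TPM for K823R, and 3 of the 6 were higher in both. Pituitary markers summed to 2.54 and 4.80 TPM with the WT allele and 23.8 and 20.0 TPM with K823R, with Lhb at 0 throughout. The part of these cells in the protocadherin differences was not tested.

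Genes that act on or with the clusters were examined as lists, and none of their members passed an adjusted p of 0.05 in limma. CTCF and cohesin bring protocadherin promoters to their enhancers. The list held 13 genes for CTCF, cohesin subunits and factors that load, release or modify cohesin. All 13 were tested, and 6 were higher and 7 lower with a median difference of -0.005. Ctcf was at 25.3 and 25.9 TPM in the WT libraries and 27.5 and 26.5 in the K823R libraries. The cohesin subunit Stag2 was at 22.4 and 20.3 TPM among WT against 17.2 and 18.9 TPM among K823R libraries, below WT in both libraries, with a limma difference of -0.23 ± 0.10 (SE, adjusted p = 0.918). The cohesin acetyltransferase Esco1 lay lower in both as well, at 9.76 and 8.82 TPM with the WT allele and 7.27 and 8.10 TPM with K823R. The subunit Smc1a and the loader Mau2 had the smallest p on the higher side, with differences of 0.08 each.

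Of 16 genes for DNA methylation, its removal and silencing, 13 were tested, with a median of 0.10 beside 0.03 for all genes tested. Among the 13, 12 were higher and 1 lower, where 57.4% of all genes tested were higher. The 12 included the demethylation genes Tet2 and Tet3, with differences of only 0.01 each. The corepressor Trim28 was at 50.75 and 45.2 TPM in the WT libraries and 61.8 and 50.79 in the K823R libraries, the latter barely above the WT range. The histone methyltransferase Ehmt1 was at 9.47 and 7.41 TPM among WT against 12.1 and 9.47 TPM among K823R libraries, so that the groups touched, a difference of 0.32 ± 0.18 (SE, limma adjusted p = 0.918) that was 0.16 without WT replicate 2 or K823R replicate 1 and 0.48 without K823R replicate 2. The methyltransferase Dnmt3a was the one that was lower, at 4.77 and 5.64 TPM with the WT allele and 4.90 and 4.55 TPM with K823R. Dnmt3b, which methylates protocadherin promoters in development, stayed under 0.5 TPM in every library and was not tested.

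Intracellular partners, among them the kinases Ptk2 and Fyn and the WAVE complex that remodels actin, numbered 22, all tested, with 15 higher, 7 lower and a median of 0.06. The WAVE subunit Wasf2 was at 17.2 and 15.4 TPM in the WT libraries and 18.9 and 18.7 in the K823R libraries, and the GTPase Rhoa at 195 and 202 TPM among WT against 220.1 and 213 TPM among K823R libraries, both above WT. Fyn was at 67.7 and 64.7 TPM with the WT allele and 57.8 and 61.8 TPM with K823R, below WT in both. Pdcd10, an adaptor that binds the gamma tail, was at 61.4 and 74.7 TPM in the WT libraries and 61.4 and 56.0 in the K823R libraries. Of the proteases that cleave protocadherins and their synaptic partners, 12 of 12 were tested, with 9 higher, 3 lower and a median of 0.10. Psen2, a gamma-secretase subunit, and Nlgn2, a neuroligin of inhibitory synapses, had differences of 0.19 and 0.24, while Nlgn3, another neuroligin, had a difference of -0.09 with K823R below WT in both libraries.

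Related adhesion genes outside the clusters gave the smallest unadjusted p-values. Of 12 non-clustered protocadherins, 8 were tested, with 3 higher, 5 lower and a median of -0.02. Pcdh7 was at 45.9 and 38.2 TPM among WT against 31.7 and 33.5 TPM among K823R libraries, a limma difference of -0.35 ± 0.12 (SE; -0.22 without WT replicate 1) with an unadjusted p of 0.032 and an adjusted p of 0.918. Pcdh1 was at 24.3 and 18.9 TPM with the WT allele and 25.4 and 33.4 TPM with K823R, a difference of 0.42 ± 0.19 that was 0.25 without WT replicate 2 and 0.23 without K823R replicate 2. Pcdh17 was higher by 0.16, and Pcdh11x was lower only against WT replicate 1, at 9.45 and 5.13 TPM in the WT libraries and 5.13 and 5.22 in the K823R libraries.

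Of 19 other cadherins, 17 were tested, with 9 higher, 8 lower and a median of 0.01. Cdh19, which is also a marker of satellite glia, was at 34.7 and 37.7 TPM among WT against 27.5 and 31.0 TPM among K823R libraries, a limma difference of -0.30 ± 0.10 (SE) with an unadjusted p of 0.036 and an adjusted p of 0.918. Cdh11 had a difference of -0.15, Cdh2, the neuronal cadherin, of 0.11, and Cdh5, the cadherin of endothelium, of 0.23. The non-clustered protocadherins summed to between 119 and 138 TPM in the 4 libraries, below the clustered total in each.

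Genes on either side of or between the clusters, 19 in all, gave 17 tested, with 8 higher, 9 lower and a median of -0.01. Arap3 was at 2.70 and 3.62 TPM with the WT allele and 6.96 and 4.22 TPM with K823R, a limma difference of 0.64 ± 0.26 (SE, adjusted p = 0.918) that was 0.34 without K823R replicate 1, and Fchsd1 had a difference of 0.31. Wdr55 was at 20.6 and 20.9 TPM in the WT libraries and 18.2 and 17.8 in the K823R libraries, and Ndufa2, a subunit of respiratory complex I, at 267 and 340.3 TPM among WT against 253 and 259 TPM among K823R libraries, both below WT. Of the 17 neighbours, 3 lay above WT in both K823R libraries and 4 below, or 17.6% and 23.5%, against 19.4% and 14.6% of all genes tested.

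**Figure D5:**
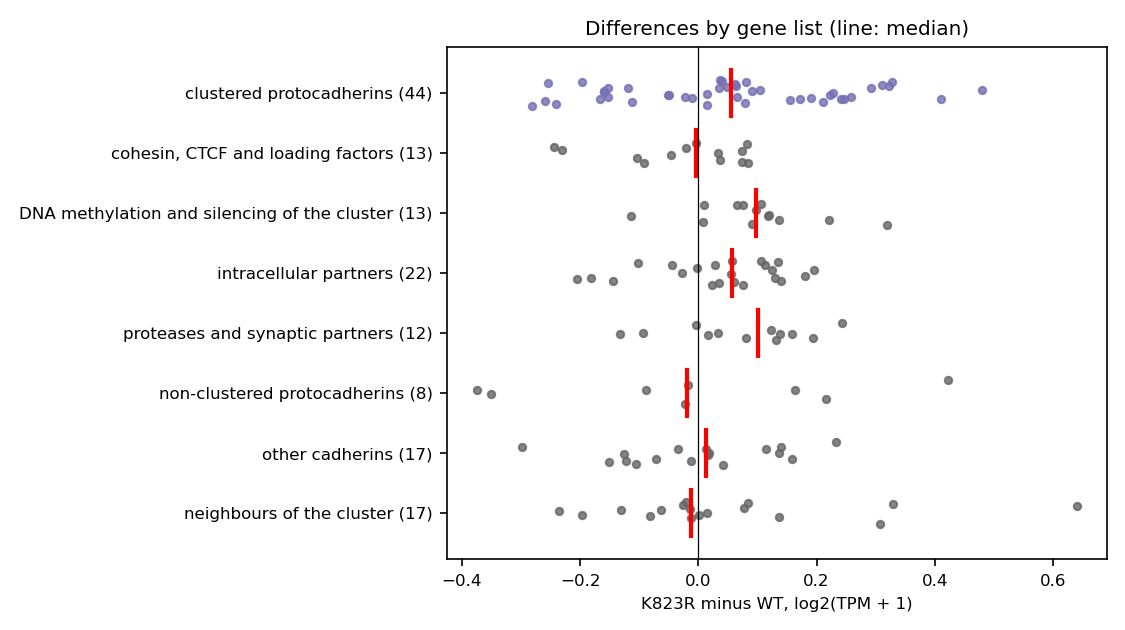
Points give the difference, K823R less WT in log2(TPM + 1), for each tested gene, one row per list with the number tested in brackets, and the red line marks the median of the row. The 44 clustered protocadherins have a median of 0.06, and the medians of the 7 other lists lie between -0.02 and 0.10.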

How the data were processed

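The authors deposited 1 table of TPM per gene for 4 libraries. Per the submitters' processing notes, the tools were fastp 0.19.5, RSEM, HISAT2 and edgeR and the build GRCm38.p6. The annotation release, the strand setting and the treatment of reads that match several genes are not stated in these sources. RNA was selected as messenger RNA and primed with random hexamers, per the labels' protocols. The 2 columns of authors' group means were not used. Coordinates are from GENCODE M21 and symbols for identifiers from RefSeq.

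The limma 3.58.1 test in R 4.3.3 was fitted on log2(TPM + 1) for the 15390 genes that averaged 1 TPM or more, with a variance trend, all 4 libraries and no block, two-sided, Benjamini-Hochberg adjusted, with a threshold of 0.05. A difference on this scale understates the change of low genes. Sums and shares were compared with exact permutation tests. The fit was tested on simulated data. Tables used Python 3.11.15, pandas 2.3.3, numpy 2.4.6 and scipy 1.17.1, and plots matplotlib 3.10.9.

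Members and lists were chosen with earlier results of these data known. Genes named by rule were the C-type members, per subfamily the 3 with the highest mean, the lowest tested and up to 2 with the smallest p in each direction, members at 0, per list 2 in each direction, and Trpv1. A gene that this rule takes from a list is not reported here. Pcdha6, Pcdha8, Pcdhb10, Pcdhga8, Pcdhga12, Pcdhgb8, Ctcf, Ptk2, Dnmt3b, Tet2, Tet3, BC037039, Gm42416 and Gm43110 were named after their values were seen. Alternatives were another pseudocount, other filters and scalings, no variance trend, a replicate block and leaving out each library.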

Additional observations from a re-analysis of the deposited data

How the results depend on the processing

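No clustered protocadherin was called under any of the 12 alternatives run, in which between 9 and 57 members were tested. The count over all genes, 1 in the fit reported, was 0 with no filter, 2 with a mean of at least 5 TPM, 0 without the variance trend, 0 with the replicate number as a block, and 0 to 0 when 1 library was left out. The deviations of same-numbered libraries had a correlation of 0.05 across all genes tested, so the numbers are not taken to pair the libraries. The alpha and gamma sums were nonetheless higher in replicate 1 than in replicate 2 in both genotypes. With the block the SE of the alpha sum's difference went from 0.11 to 0.056, and that of gamma from 0.098 to 0.054. The limma unadjusted p of the gamma sum was 0.073 with the block and 0.22 without. With the block the limma adjusted p-values of the alpha, beta and gamma sums were 0.805, 0.823 and 0.749. The median difference of the tested beta members was 0.048 with a mean of at least 5 TPM, which leaves 1 beta member, and -0.037 under quantile normalization, where the neighbours' median was -0.031. Leaving out 1 library at a time gave medians from -0.049 to 0.18 for alpha, 0.010 to 0.071 for beta and 0.037 to 0.22 for gamma members. The corresponding ranges were -0.012 to 0.062 for CTCF and cohesin, 0.070 to 0.16 for DNA methylation and silencing, -0.016 to 0.092 for intracellular partners, 0.027 to 0.18 for proteases and synaptic partners, -0.072 to 0.024 for non-clustered protocadherins, -0.053 to 0.048 for other cadherins, and 0.0053 to 0.029 for neighbours. The alpha sum reversed to -0.045 without K823R replicate 1 and to -0.03 without WT replicate 2, and reached 0.17 without K823R replicate 2. The beta sum ran from 0.027 without WT replicate 2 to 0.14 without WT replicate 1, and the gamma sum from 0.061 without WT replicate 2 to 0.22 without WT replicate 1. The cause of these shifts was not tested. Of 289 values for the 28 named members under the alternatives, 18 had the other sign, in 10 members whose genotypes overlapped: Pcdha1, Pcdha9, Pcdhac1, Pcdhac2, Pcdhb9, Pcdhb16, Pcdhb17, Pcdhga9, Pcdhgb2 and Pcdhgb5. All 10 did so without a library, and Pcdhac1, Pcdhb17 and Pcdhga9 also under another scaling. The smallest adjusted p among the named genes was 0.656. TPM gives no depth, so what low members such as Pcdhgc5 lack in reads is unknown.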

Other observations

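The protocadherin locus also holds 27 other annotated rows, most of them antisense, pseudogene or readthrough models, of which 14 were listed at 0 in all 4 libraries and 3 averaged at least 1 TPM. Gm38182, a processed transcript from 37823879 to 37840382 of chromosome 18 on GRCm38 that spans constant exons of the gamma cluster on the same strand, was at 4.40 and 8.58 TPM with the WT allele and 5.50 and 9.35 TPM with K823R. Both libraries numbered 2 were above both numbered 1, a split that crosses the genotypes, and how far its reads come from gamma transcripts was not tested. Taf7, an intronless gene for a transcription factor subunit between the beta and gamma clusters, was at 9.57 and 8.55 TPM in the WT libraries and 7.89 and 8.46 in the K823R libraries.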
